A study of Rattus norvegicus with 78 samples.

Results

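The genes described here are 6 components of the PIWI-interacting RNA (piRNA) pathway and of germ granules, Piwil1, Piwil2, Tdrd1, Mael, Ddx4 and Ddx25. They were taken by their gene symbols in the annotation of the array, and all 6 of the 6 were on it, among 14506 genes with a symbol of their own. Each had a single probe set. The samples were sperm of the cauda epididymis, the tail of the duct in which sperm are stored, from Fischer 344 rats, an inbred strain, and each was hybridised to an array of its own. The 4 groups were rats given corn oil (n = 20), rats given 1,2-dibromo-3-chloropropane (DBCP) at 5 mg/kg per day (n = 20), and rats of either treatment after a recovery period (corn oil n = 19, DBCP n = 19). DBCP is a soil fumigant that damages germ cells, and corn oil was the control treatment. Exposure lasted 3 months per the text of the series, while the sources used here give neither the length of the recovery nor the age of the rats. The labels name each array a biological replicate, and the title of the series names testis where the labels name sperm.

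piRNAs are small RNAs of the germ line that guide PIWI proteins, a branch of the Argonaute family, to the transcripts of transposons and to other targets. In spermatocytes and round spermatids, PIWI proteins, Tudor proteins and RNA helicases gather in cytoplasmic granules, first in the cement between mitochondria and later in the chromatoid body, where RNAs are stored, processed and degraded. Mature sperm transcribe almost nothing, so that sperm RNA is largely what remains from these earlier stages, together with RNA of other cells in the preparation.

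The array values are log2 summaries per probe set, so that a difference of 1 is a doubling, and the genes are not ranked by level below. On 78 arrays with 29214 probe sets and 0 missing values, the median value per array lay between 6.55 and 6.75, and the correlation between arrays lay between 0.860 and 0.988. No detection calls were used here. Ddx4 had values between 5.68 and 6.77, low on the scale of the arrays, so whether its RNA was above background is not known here. The same is not known for Tdrd1 (mean 6.63), Piwil2 (6.97), Ddx25 (7.30) and Piwil1 (7.37). Some genes of Sertoli cells, Leydig cells and spermatogonia lay at such levels too, such as Amh (6.63), Insl3 (6.78) and Gfra1 (7.30). The mean of 20 late spermatid and sperm genes ranged from 9.12 to 11.5 over arrays, and that of 17 spermatocyte genes from 5.99 to 6.30. The mean of 24 leukocyte genes ranged from 7.36 to 8.49. In the array weights of limma 6 arrays fell under 0.5: replicates 2, 13 and 20 of the DBCP rats at the end of exposure, replicates 7 and 15 of the DBCP rats after recovery, and replicate 11 of the corn oil rats after recovery.

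Windows around an annotated start site of the genes are shown first. RefSeq (build GRCr8) promoter windows, 250 bases before to 50 after that site, were available here for 5 of the 6 genes (Piwil2 was not among them). The site was at the edge of the annotated gene in Mael alone. In Piwil1, Ddx4, Ddx25 and Tdrd1 it lay inside the annotated gene, and the stretches of Ddx4, Ddx25 and Tdrd1 below lie within their genes. All 5 windows held the E-box hexamer CACGTG, which reads the same on both strands, once each, against 6.65% of 27457 rat promoter windows and 11.9% of the 4060 windows within the GC content of these genes (63.7 to 72.7%, against a median of 52.3%). Of 22 windows of other genes of the pathway 5 held it, of 18 windows of late spermatid genes 1, and of 13 windows of spermatocyte genes 3. These 28-base stretches are printed 5′ to 3′ on the strand of the gene, with the hexamer in capitals:
Mael (chr13:81029828-81029855, minus strand): accaggcctacCACGTGacaattccccg
Piwil1 (chr12:33606719-33606746, minus strand): tcaggacccagCACGTGttcgcctcacc
Ddx4 (chr2:46016015-46016042, minus strand): cccggcgtccgCACGTGcagccgtttaa
Ddx25 (chr8:42168072-42168099, minus strand): gggggtggcagCACGTGccgggggcgag
Tdrd1 (chr1:265880927-265880954, plus strand): ggagctgagcgCACGTGggagcagactg

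Counted from the start site, the hexamer began at base -221 in Mael, -152 in Piwil1, -87 in Tdrd1, -80 in Ddx4 and -8 in Ddx25, so its distance was not shared. The 5-base motif CCAAT, searched on both strands, was also in all 5 windows, against 37.7% of all windows, and the motif AACNG, searched on both strands, was in all 5 against 81.4%. No matches of different motifs overlapped. The 250 bases in front of Mael (chr13:81029624-81029873, minus strand) held 1 hexamer and 3 copies of CCAAT, 1 of them reversed (ATTGG), all in capitals here:
Mael: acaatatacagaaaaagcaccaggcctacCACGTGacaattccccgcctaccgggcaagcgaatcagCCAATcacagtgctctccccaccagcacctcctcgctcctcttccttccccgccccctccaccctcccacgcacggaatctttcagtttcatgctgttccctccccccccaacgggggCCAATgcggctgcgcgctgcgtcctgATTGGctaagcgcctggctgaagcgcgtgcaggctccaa
These motifs were chosen after the windows had been read, and the shares describe letters, not binding.

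Mael fell most between the end of exposure and recovery, Piwil1 fell by less in rats of both treatments, Ddx25 and Tdrd1 fell in DBCP rats, and no change passed the test for Piwil2 and Ddx4. Of the 6 genes, 2 passed in corn oil rats, both lower, where 24.3% of all probe sets passed (12.8% lower, 11.5% higher). In DBCP rats 4 passed, all lower, where 13.5% of all probe sets passed (6.19% lower, 7.28% higher). The tests are from a limma fit on all arrays, with Benjamini-Hochberg adjustment across the whole array and a call at 0.05. Recovery arrays are from rats at a later time than the others, so recovery, age and the time of collection cannot be told apart in this comparison. No batch or scan time was given, so any difference in how the arrays were processed cannot be told apart from these either. Without the 6 arrays of low weight 4 of 6 passed in corn oil rats (26.2% of all probe sets) and 3 of 6 in DBCP rats (11.7%). Among arrays numbered 1 to 10 alone 3 of 6 passed in corn oil rats (16.3% of all probe sets) and 1 in DBCP rats (10.4%), and among those numbered 11 to 20 alone 0 of 6 passed in either (1.32% and 1.73%).

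**Figure D1:**
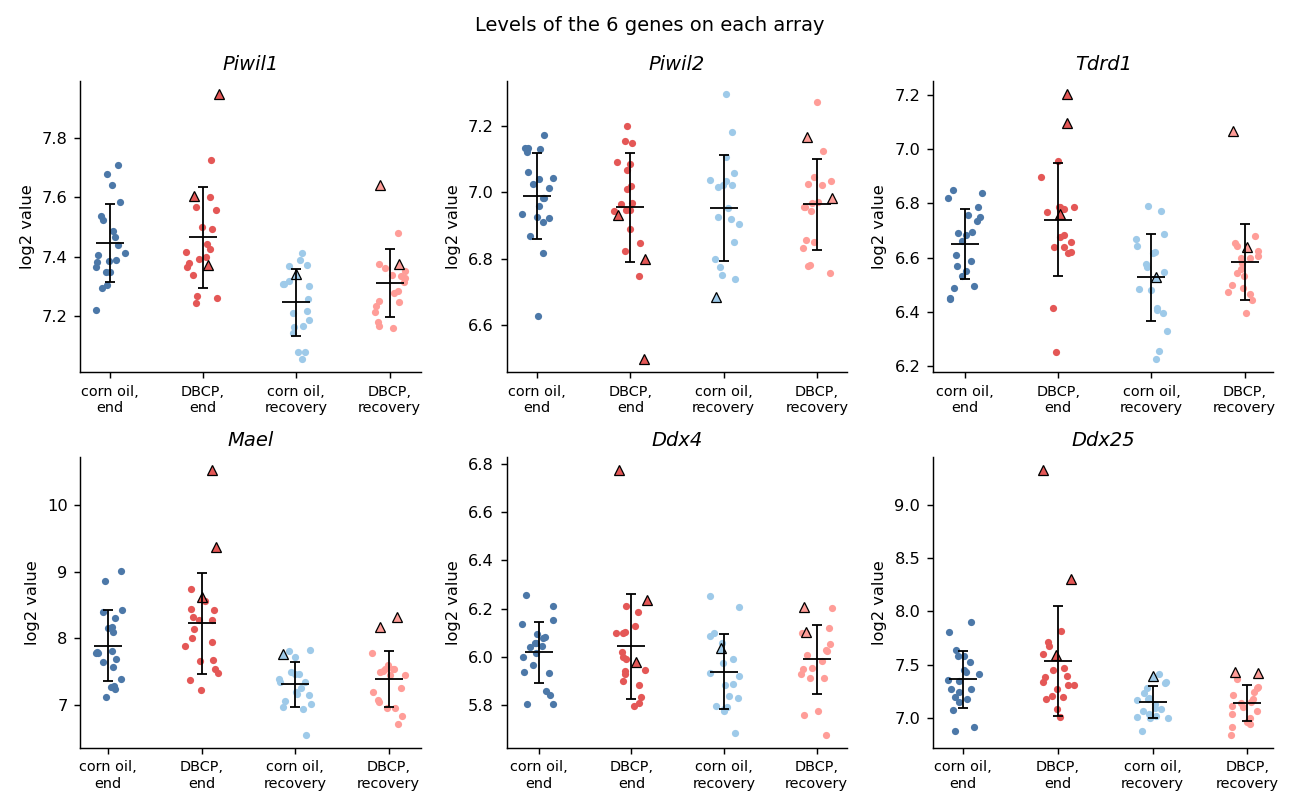
Log2 value of each gene (vertical axis, a scale of its own in each panel) on every array of the 4 groups (horizontal axis); bars are the mean and SD, and triangles mark the 6 arrays with an array weight under 0.5. Mael and Ddx25 spread upward in DBCP rats at the end of exposure, to 10.5 and 9.33, and the groups of every panel overlap.

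Piwil1 is the PIWI protein of late spermatocytes and round spermatids, called MIWI in the mouse, where spermatids arrest without it. The rat gene lies at chr12:33585747-33606715 (GRCr8). In corn oil rats Piwil1 ranged from 7.22 to 7.71, median 7.41, at the end of exposure, and from 7.06 to 7.41, median 7.26, after recovery. In DBCP rats Piwil1 ranged from 7.25 to 7.95, median 7.42, and after recovery from 7.16 to 7.64, median 7.31. The groups overlapped, with 9 of 19 recovered corn oil arrays and 5 of 19 recovered DBCP arrays below all those of the end of exposure. Piwil1 fell by 0.20 ± 0.04 (SE) in corn oil rats (limma, adjusted p = 0.000644), and 19 of 19 recovered arrays lay below the mean at the end of exposure. The fall in DBCP rats was 0.15 ± 0.04 (adjusted p = 0.0115, 17 of 19 arrays). These are falls of 1.15-fold and 1.11-fold; the spread of Piwil1 within groups was small (SD 0.13, against a median of 0.19 over all probe sets).

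Piwil2, called MILI in the mouse, acts earlier and for longer, from fetal germ cells to spermatids, and cuts transposon transcripts in the cycle that amplifies piRNAs. It lies at chr15:51841104-51907729. Piwil2 in corn oil rats ranged from 6.63 to 7.17, median 7.00, at the end of exposure and from 6.68 to 7.30, median 6.95, after recovery. Piwil2 in DBCP rats ranged from 6.50 to 7.20, median 6.96, and after recovery from 6.76 to 7.27, median 6.97. The 4 groups lay over each other. The difference over time was -0.039 ± 0.048 in corn oil rats (95% interval -0.13 to 0.057, adjusted p = 0.581) and 0.0096 ± 0.048 in DBCP rats (-0.086 to 0.11, adjusted p = 0.925).

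Tdrd1 is a scaffold whose Tudor domains hold the methylated arginines of PIWI proteins, Piwil2 among them in the mouse. It lies at chr1:265876858-265924357. Tdrd1 in corn oil rats ranged from 6.45 to 6.85, median 6.67, at the end of exposure and from 6.23 to 6.79, median 6.55, after recovery. Tdrd1 in DBCP rats ranged from 6.25 to 7.20, median 6.77, and after recovery from 6.40 to 7.07, median 6.58. Most recovered arrays were low, but 1 of them, replicate 7 of the DBCP rats, was the highest of its group by far. Tdrd1 fell by 0.16 ± 0.05 in DBCP rats (limma, adjusted p = 0.0355, 18 of 19 arrays below the earlier mean). In corn oil rats the difference was -0.12 ± 0.05 and did not pass (adjusted p = 0.0751). The DBCP call was the least stable of the 4: without the 6 arrays of low weight the difference was -0.14 (adjusted p = 0.0511).

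Mael, or Maelstrom, is needed in mice for the silencing of transposons in spermatocytes and for the output of piRNAs from their precursors. It lies at chr13:80990040-81029623. Mael in corn oil rats ranged from 7.12 to 9.02, median 7.79, at the end of exposure and from 6.56 to 7.83, median 7.35, after recovery. Mael in DBCP rats ranged from 7.23 to 10.5, median 8.21, and after recovery from 6.72 to 8.32, median 7.45. The upper ends differed most: 8 of 20 earlier corn oil arrays and 7 of 20 earlier DBCP arrays lay above every recovered array of their treatment, and 5 and 7 of the 19 recovered arrays lay below every earlier one; the others overlapped. Mael fell by 0.58 ± 0.17 in corn oil rats (1.49-fold, adjusted p = 0.00874, 19 of 19 arrays below the earlier mean) and by 0.83 ± 0.17 in DBCP rats (1.78-fold, adjusted p = 0.000193, 18 of 19 arrays). Its spread within groups was wide (SD 0.54, above that of 99.1% of probe sets). Without the 6 arrays of low weight, replicates 13 and 2 of which held the highest earlier DBCP values, Mael fell by 0.60 in corn oil rats (adjusted p = 0.000453) and by 0.71 in DBCP rats (adjusted p = 0.000164).

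Ddx4, or VASA, is the RNA helicase by which germ cells are commonly recognised, and a component of the chromatoid body. It lies at chr2:45961174-46016097. Ddx4 in corn oil rats ranged from 5.80 to 6.26, median 6.04, at the end of exposure and from 5.69 to 6.25, median 5.92, after recovery. Ddx4 in DBCP rats ranged from 5.80 to 6.77, median 6.00, and after recovery from 5.68 to 6.21, median 6.01. The groups overlapped, with 5 of 19 recovered corn oil arrays and 3 of 19 recovered DBCP arrays below every earlier one, and the highest array was again replicate 13 of the DBCP rats at the end of exposure. The difference over time was -0.080 ± 0.053 in corn oil rats (95% interval -0.19 to 0.025, adjusted p = 0.263) and -0.053 ± 0.053 in DBCP rats (-0.16 to 0.052, adjusted p = 0.550).

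Ddx25, the gonadotropin-regulated testicular helicase, carries mRNAs out of the nucleus of spermatids and into the chromatoid body, and mice without it do not complete spermatids. It lies at chr8:42152046-42168635. Ddx25 in corn oil rats ranged from 6.88 to 7.90, median 7.36, at the end of exposure and from 6.88 to 7.41, median 7.13, after recovery. Ddx25 in DBCP rats ranged from 7.01 to 9.33, median 7.39, and after recovery from 6.85 to 7.44, median 7.14. The high end shortened in both treatments, with 9 of 20 earlier arrays above every recovered array of the same treatment. Ddx25 fell by 0.39 ± 0.10 in DBCP rats (1.31-fold, limma, adjusted p = 0.00343, 19 of 19 arrays). In corn oil rats the difference was -0.21 ± 0.10 (adjusted p = 0.101). Whether that last difference passed depended on few arrays. Without the 6 arrays of low weight it was -0.23 (adjusted p = 0.00731). Without replicate 13 of the DBCP rats at the end of exposure alone it stayed at -0.21 and passed too (adjusted p = 0.0252). That array is in neither corn oil group, and leaving it out changed the spread estimated over all groups, not the difference. In DBCP rats the fall without the 6 arrays was 0.27 (adjusted p = 0.00489).

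DBCP itself moved none of the 6 genes past the threshold. At the end of exposure 0 of 6 passed, as did 0% of all probe sets in the limma fit (0 of 29214, with 3386 at an unadjusted p under 0.05). Mael was 0.33 ± 0.17 higher in DBCP than in corn oil rats (95% interval 0.0059 to 0.66, unadjusted p = 0.0461, adjusted p = 0.423), with 13 of 20 arrays above the corn oil mean. Ddx25 differed by 0.17 ± 0.10 (adjusted p = 0.486) and Tdrd1 by 0.089 ± 0.052 (adjusted p = 0.494). Only the Mael difference was past an unadjusted 0.05. Piwil1 (0.019), Ddx4 (0.025) and Piwil2 (-0.036) differed by less than their standard errors of 0.04 to 0.05. Without the 6 arrays of low weight, the DBCP mean of Mael was 8.00 in place of 8.23, against 7.89 in corn oil rats, and that of Ddx25 was 7.38 in place of 7.53, against 7.36. The 20 late spermatid genes were higher in DBCP rats by a median of 0.39, all 20 above 0 and 0 past the threshold, and with their level as a covariate Mael differed by -0.14.

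After recovery 0 of 6 passed between DBCP and corn oil, as did 0% of all probe sets (1084 at an unadjusted p under 0.05). The differences ran from -0.0067 ± 0.10 for Ddx25 to 0.077 ± 0.17 for Mael, and the smallest adjusted p was 0.983. The interaction, which asks whether the change over time differed between DBCP and corn oil rats, passed for 0 of 6 and for 0% of all probe sets (3170 at an unadjusted p under 0.05). It was -0.26 ± 0.24 for Mael (adjusted p = 0.617), -0.18 ± 0.14 for Ddx25 (adjusted p = 0.563) and -0.033 ± 0.074 for Tdrd1 (adjusted p = 0.853). So the falls of Ddx25 and Tdrd1 that passed in DBCP rats alone are not shown to be larger there. The comparison at the end of exposure and that over time in DBCP rats share the 20 DBCP arrays of the end of exposure.

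Late spermatid genes moved in the same direction as Mael. Of 20, 12 fell and 0 rose over time in corn oil rats, where 12.8% of all probe sets fell (median difference -0.38, against -0.024 over all genes), and 17 fell and 0 rose in DBCP rats, where 6.19% fell (median -0.78, against 0.0069). Tnp1, a transition protein that replaces histones, fell by 0.87 ± 0.22 (adjusted p = 0.00272) and by 1.29 ± 0.22 (adjusted p = 1.22e-05). Akap4, an anchoring protein of the sperm tail, fell by 0.72 ± 0.19 (adjusted p = 0.00371) and by 1.37 ± 0.19 (adjusted p = 1.64e-07). The mean of the 20 genes ranged from 9.12 to 10.7 in corn oil rats and from 9.59 to 11.5 in DBCP rats at the end of exposure, and later, in recovery, from 9.13 to 10.0 and from 9.25 to 10.4. Of 24 leukocyte genes, 13 rose and 1 fell over time in corn oil rats, where 11.5% of all probe sets rose and 12.8% fell. In DBCP rats 15 rose and 0 fell, where 7.28% rose and 6.19% fell. Their mean ranged from 7.54 to 8.18 and from 7.36 to 7.98 at the end of exposure, and in recovered rats from 7.78 to 8.49 and from 7.74 to 8.30. Genes of the epididymal epithelium moved too: of 14, 5 rose and 2 fell in corn oil rats, between -0.43 and 0.65, and 1 rose in DBCP rats. Of 9 Sertoli cell genes 2 and of 6 Leydig cell genes 2 fell in corn oil rats and 0 rose, and the differences of all 9 and all 6 were below 0; in DBCP rats 1 of each list fell. Of 17 spermatocyte genes 4 fell and 0 rose in corn oil rats, with 12 below 0, and 2 fell in DBCP rats, with 6 below 0. Of 8 genes of spermatogonia 3 fell and 0 rose in corn oil rats, with all 8 below 0, and 1 fell in DBCP rats. The part of these lists in the differences of the 6 genes was not tested. In such bulk samples fewer cells of a type and less RNA per cell cannot be told apart.

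With the late spermatid level of each array as a covariate, most differences of the 6 genes over time shrank towards 0. Mael differed by -0.054 in corn oil rats (adjusted p = 0.555) and by 0.16 in DBCP rats (adjusted p = 0.146), Ddx25 by 0.041 (adjusted p = 0.644) and by 0.094 (adjusted p = 0.385), and Tdrd1 by -0.013 (adjusted p = 0.820) and by 0.054 (adjusted p = 0.447). Piwil1 still fell in corn oil rats, by 0.13 (adjusted p = 0.00997), and differed by -0.015 in DBCP rats (adjusted p = 0.838). In this fit 48% of all probe sets passed in corn oil rats and 26.9% in DBCP rats. The late spermatid genes fell over time themselves (median -0.38 in corn oil and -0.78 in DBCP rats). Within groups their level varied with Mael (r = 0.91), and the list was chosen with earlier results of these data known. The difference of any gene that follows this level shrinks in such a fit, so the reason for the falls was not tested. With the leukocyte level as the covariate, Mael kept its size (-0.58 and -0.84), while its adjusted p was 0.107 in corn oil rats, where 1.7% of all probe sets passed, and 0.00123 in DBCP rats, where 23.1% passed and the same 4 genes did.

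**Figure D2:**
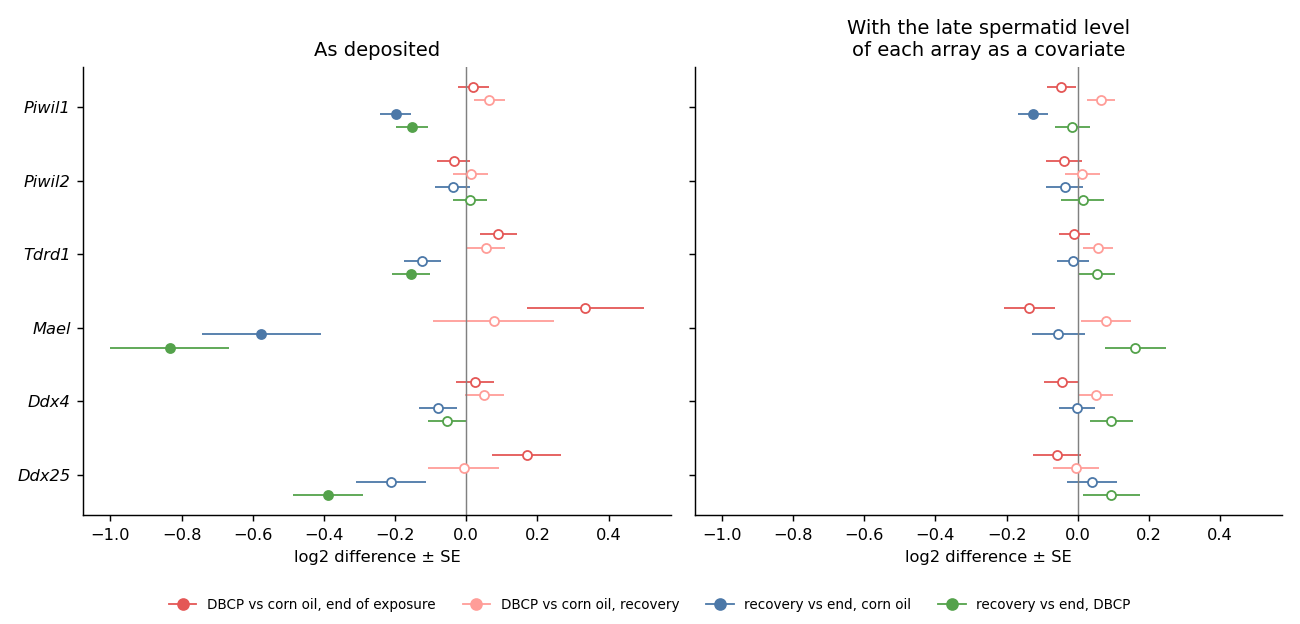
Log2 difference ± SE (horizontal axis) of each gene (vertical axis) in the 4 comparisons between groups, in the limma fit on the deposited values (left) and with the late spermatid level as a covariate (right); filled points passed an adjusted p of 0.05. The Mael falls of 0.58 and 0.83 on the left are at -0.054 and 0.16 on the right, while Piwil1 in corn oil rats stays filled at -0.13.

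Within groups some pairs of the genes varied together and others did not. After removal of the group means, 33 pairs were correlated over the 78 arrays, 15 between the 6 genes and 18 with the mean levels of the late spermatid, leukocyte and spermatocyte lists; p-values are from 100000 permutations, adjusted over the 33, and 20 pairs passed by Pearson's r, of which 18 passed by Spearman's rho as well. All genes of an array share its scale and whatever mixture of cells it holds, and that mixture was not measured here. These values therefore describe arrays and do not show a link between genes.

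Mael and Ddx25 varied most closely together (r = 0.85, rho = 0.77). The permutation p of both was 1e-05, the smallest that these permutations can give (adjusted p = 3.3e-05 for r and 3.67e-05 for rho). Without the 2 arrays farthest from the median of Mael r was 0.77, and within the 4 groups it ran from 0.75 to 0.92. Mael also varied with Ddx4 (r = 0.63, rho = 0.55, adjusted p = 3.3e-05 and 3.67e-05), with Tdrd1 (r = 0.61, rho = 0.51, adjusted p = 3.3e-05 and 3.67e-05) and with Piwil1 (r = 0.44, rho = 0.44, adjusted p = 0.000305 and 0.000231). Without the 2 farthest arrays these were 0.54, 0.51 and 0.50. Ddx25 and Tdrd1 had r = 0.55 and rho = 0.42 (adjusted p = 3.3e-05 and 0.00044), and r = 0.41 without the 2 farthest arrays.

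The other pairs were weaker or absent. Between Piwil1 and Ddx4 r was 0.093 and rho 0.086 (adjusted p = 0.530 and 0.555). Ddx4 and Ddx25 had r = 0.46 (adjusted p = 0.00171) but rho = 0.23 (adjusted p = 0.0669), and r = 0.20 without the 2 farthest arrays, so their relation rests on those arrays. Piwil1 varied with Ddx25 (r = 0.35, rho = 0.43, adjusted p = 0.00611 and 0.00044) and with Tdrd1 (r = 0.35, rho = 0.32, adjusted p = 0.00268 and 0.00967), which were 0.24 and 0.19 without the 2 farthest. The Piwil1 relations differed between the arrays numbered 1 to 10 and those numbered 11 to 20: with Mael r was 0.65 and 0.19, and with Tdrd1 0.60 and -0.056. Ddx4 and Tdrd1 had r = 0.39 and rho = 0.31 (adjusted p = 0.00141 and 0.0109), and r = 0.26 without the 2 farthest. Piwil2 passed with none of the other 5 genes (r from -0.20 to 0.14, smallest adjusted p = 0.129); by rho it came closest with Tdrd1 (rho = 0.25, adjusted p = 0.0504), where r was 0.29 without the 2 farthest arrays. Within the DBCP rats at the end of exposure, where replicate 13 was lowest for Piwil2 and highest for Mael, r between these genes was -0.50, and in the other groups it was 0.21 to 0.32.

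The late spermatid level and Mael had the highest of the 33 values (r = 0.91, rho = 0.90, adjusted p = 3.3e-05 and 3.67e-05, and r from 0.86 to 0.97 within groups). It varied in turn with Ddx25 (r = 0.76, rho = 0.74), Tdrd1 (r = 0.64, rho = 0.54) and Piwil1 (r = 0.51, rho = 0.50), each with adjusted p = 3.3e-05 and 3.67e-05, and with Ddx4 (r = 0.45, rho = 0.40, adjusted p = 0.000165 and 0.000762). Without the 2 arrays farthest from its median these were 0.92, 0.74, 0.58, 0.58 and 0.37. With Piwil2 its relation did not pass (r = 0.013, rho = 0.13, adjusted p = 0.936 and 0.351). The spermatocyte level varied most with Mael (r = 0.56, rho = 0.53) and Ddx4 (r = 0.56, rho = 0.53), both with adjusted p = 3.3e-05 and 3.67e-05. It was the 1 list level that passed for Piwil2 (r = 0.36, rho = 0.39, adjusted p = 0.00268 and 0.00108). That r was 0.30 without the 2 farthest arrays and 0.22 with quantile normalization, and within the groups it ran from -0.090 to 0.72. The leukocyte level passed with none of the 6 genes (r from -0.22 to 0.093, smallest adjusted p = 0.0791 for r and 0.0724 for rho, both with Ddx4, where r was -0.35 without the arrays of low weight).

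**Figure D3:**
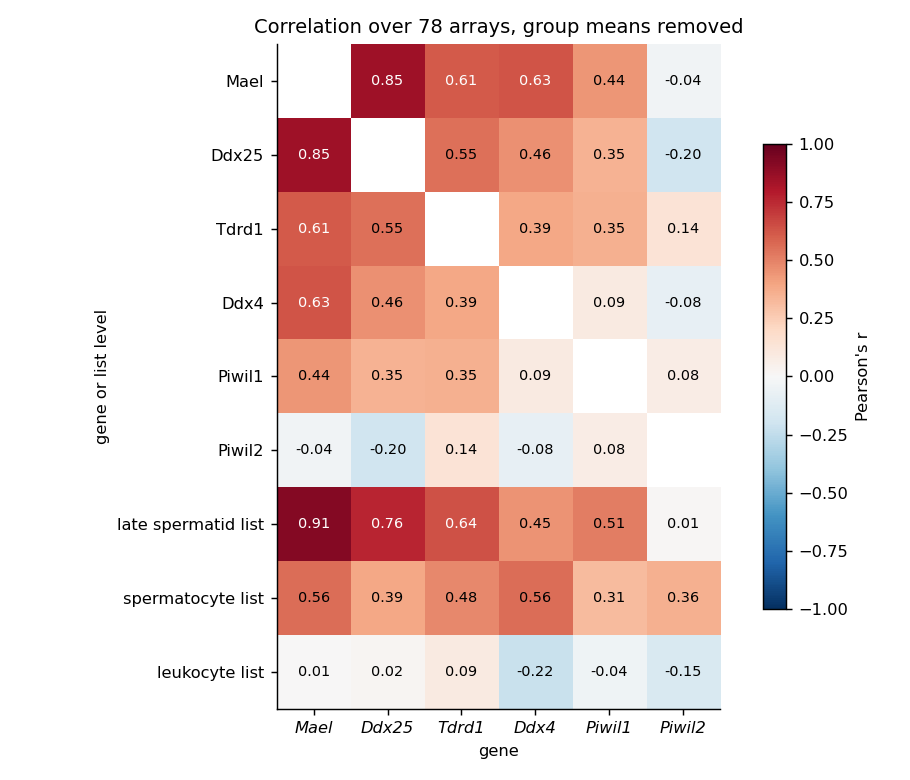
Pearson's r over 78 arrays after removal of group means, between the 6 genes (columns) and the same genes or list levels (rows); colour runs from blue at -1 to red at 1, and empty cells are a gene with itself. The Mael column holds the highest values, 0.85 with Ddx25 and 0.91 with the late spermatid list, and the Piwil2 column is pale except for 0.36 with the spermatocyte list.

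**Figure D4:**
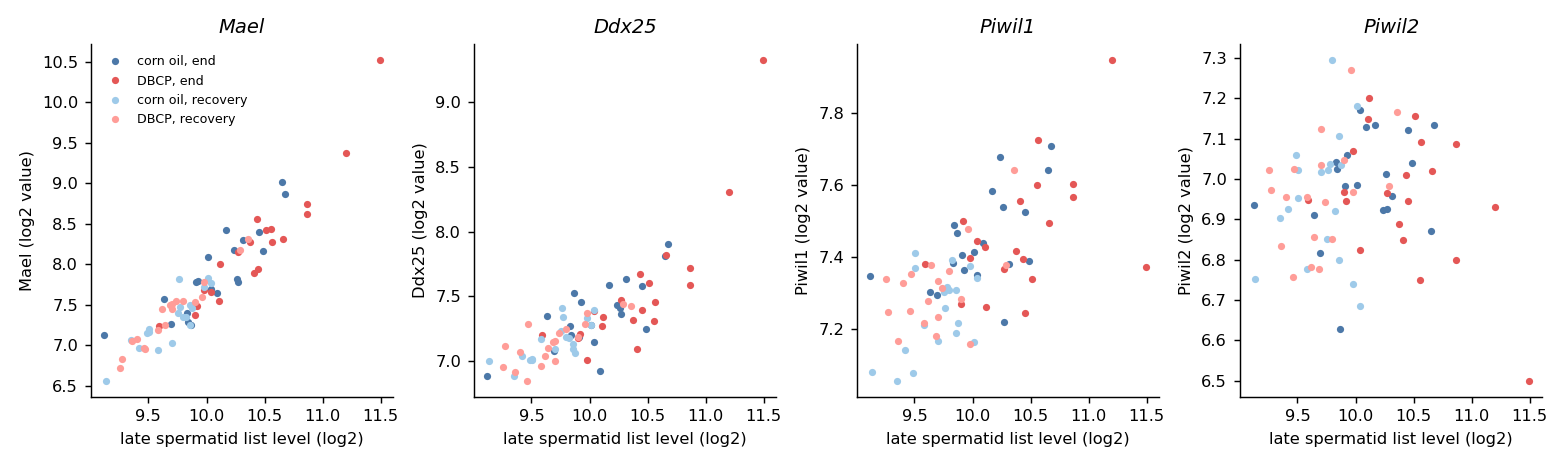
Log2 value of Mael, Ddx25, Piwil1 and Piwil2 (vertical axes) against the mean log2 level of 20 late spermatid genes (horizontal axis), with 1 point per array coloured by group. Mael follows the level in every group, Ddx25 bends upward at 2 DBCP arrays of the end of exposure (8.30 and 9.33), and Piwil2 shows no clear slope.

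The 3 genes that followed each of the 6 most closely, by Pearson's r over 78 arrays after removal of group means, are given as a description. Mael was most like Phf7 (r = 0.95), a reader of histone marks in spermatids, Cmtm1 (r = 0.95) and Fabp9 (r = 0.94), a fatty acid binding protein of the sperm head. Ddx25 was most like Ipo4, an importin (r = 0.88), Lrrc27 (r = 0.88) and Agbl5, a tubulin deglutamylase (r = 0.88). Tdrd1 was most like C5h1orf141 (r = 0.78), Clgn, the testis chaperone calmegin (r = 0.73), and Mast2 (r = 0.73). Ddx4 was most like the cap-binding factor Eif4e (r = 0.72), Sycp2, of the synaptonemal complex (r = 0.71), and Gk2, a glycerol kinase of spermatids (r = 0.69). For Piwil1 these were Tchp (r = 0.58), Cdv3 (r = 0.58) and Spmip9 (r = 0.57), and for Piwil2 Or2a14 (r = 0.55), Ryr3 (r = 0.53) and Pdlim5 (r = 0.52). Without the arrays of low weight all 18 values were lower, at 0.92 to 0.94 for Mael, 0.77 to 0.78 for Ddx25, 0.60 to 0.71 for Tdrd1, 0.53 to 0.70 for Ddx4, 0.47 to 0.51 for Piwil1 and 0.42 to 0.47 for Piwil2. Of 14505 other genes, 530 had r over 0.7 with Mael, 406 with Ddx25, 11 with Tdrd1, 2 with Ddx4 and 0 with Piwil1 or Piwil2.

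Other genes of the pathway moved in both directions. Of 45 genes listed by role 26 were on the array. In corn oil rats 5 rose and 4 fell over time (9 of 26, where 24.3% of all probe sets passed), with a median difference of -0.016. In DBCP rats 2 rose and 1 fell (3 of 26, where 13.5% passed), with a median of -0.024. Between DBCP and corn oil at either time, and in the interaction, 0 of 26 passed, and the smallest adjusted p was 0.313, 0.983 and 0.454.

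Over the whole array 12.8% of probe sets fell and 11.5% rose in corn oil rats, and no difference of the counts by role from these shares was tested. Of 7 genes of piRNA processing 2 fell and 0 rose, Pnldc1, which trims the 3′ ends of piRNAs, by 0.19 ± 0.05 (adjusted p = 0.00801), and Fkbp6, a co-chaperone for their loading, by 0.17 ± 0.05 (adjusted p = 0.0176). Of 6 partners of PIWI proteins 2 fell, Piwil4, the nuclear PIWI protein, by 0.20 ± 0.06 (adjusted p = 0.0105), and Tdrd9, a Tudor helicase, by 0.16 ± 0.06 (adjusted p = 0.0403). The other probe set of Tdrd9 differed by -0.12 ± 0.04 (adjusted p = 0.0125). Another partner rose, the arginine methyltransferase Prmt5, whose marks Tudor proteins bind, by 0.16 ± 0.05 (adjusted p = 0.0253). In DBCP rats the same 5 genes differed by -0.064, -0.075, -0.095, -0.065 and 0.055, and none passed.

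Of 10 genes listed for RNA binding in germ granules and RNA decay, which include germ cell genes such as Boll and Hspa2, 4 rose and 0 fell in corn oil rats: Dicer1, the enzyme that cuts microRNA precursors, by 0.28 ± 0.05 (adjusted p = 2.57e-05), Ddx6, a helicase of P-bodies, by 0.26 ± 0.06 (adjusted p = 0.000752), Upf2, of nonsense-mediated decay, by 0.34 ± 0.10 (adjusted p = 0.0110), and Tsn, or translin, by 0.18 ± 0.07 (adjusted p = 0.0401). In DBCP rats, where 7.28% of all probe sets rose and 6.19% fell, Ddx6 rose by 0.18 ± 0.06 (adjusted p = 0.0232), and the 2 other probe sets of Ddx6 rose in both treatments. The testis chaperone Hspa2 fell there by 0.44 ± 0.11 (adjusted p = 0.00420, 18 of 19 arrays), and Tex15, which acts in nuclear silencing of transposons, rose by 0.14 ± 0.05 (adjusted p = 0.0267). Tex15 did not pass with quantile normalization, with array weights, without the arrays of low weight or with the late spermatid level as a covariate. With the leukocyte level as a covariate 1 of the 9 corn oil calls passed, Dicer1 at 0.21 (adjusted p = 0.0409), in a fit where 1.7% of all probe sets passed in place of 24.3%. The others kept their sign, with Ddx6 at 0.14, Prmt5 at 0.071, Upf2 at 0.044, Tsn at 0.027, Piwil4 at -0.066, Tdrd9 at -0.099, Fkbp6 at -0.13 and Pnldc1 at -0.14. In DBCP rats, where 23.1% of all probe sets passed with the leukocyte level, Ddx6 did not pass, while Hspa2 and Tex15 did. With the late spermatid level as the covariate all 9 corn oil calls passed with the same sign, where 48% of all probe sets passed. Hspa2 in DBCP rats differed by 0.15 in that fit (adjusted p = 0.191).

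Among the genes that passed in no comparison of the fit on the deposited values, Boll, an RNA-binding protein of spermatogenesis, differed over time by 0.31 ± 0.15 in corn oil rats (adjusted p = 0.120) and by -0.026 in DBCP rats, and Gtsf1, a zinc finger partner of PIWI proteins, by 0.14 ± 0.13 and by -0.028. Tsnax, the partner of translin, differed by 0.068 and by 0.13 (adjusted p = 0.358 and 0.109). Wdr77, the partner of Prmt5, differed by -0.10 and by -0.075 (adjusted p = 0.0508 and 0.203), and Tdrd7, a Tudor protein of the chromatoid body, by -0.019 and by -0.037. With the late spermatid level as a covariate Boll and Gtsf1 passed over time in both treatments and Wdr77 in corn oil rats. Wdr77 passed there as well with array weights, without the arrays of low weight, with the filter on dim probe sets, with 1 probe set per gene, with the replicate set as a block, with the 2 groups alone and with the trended prior.

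**Figure D5:**
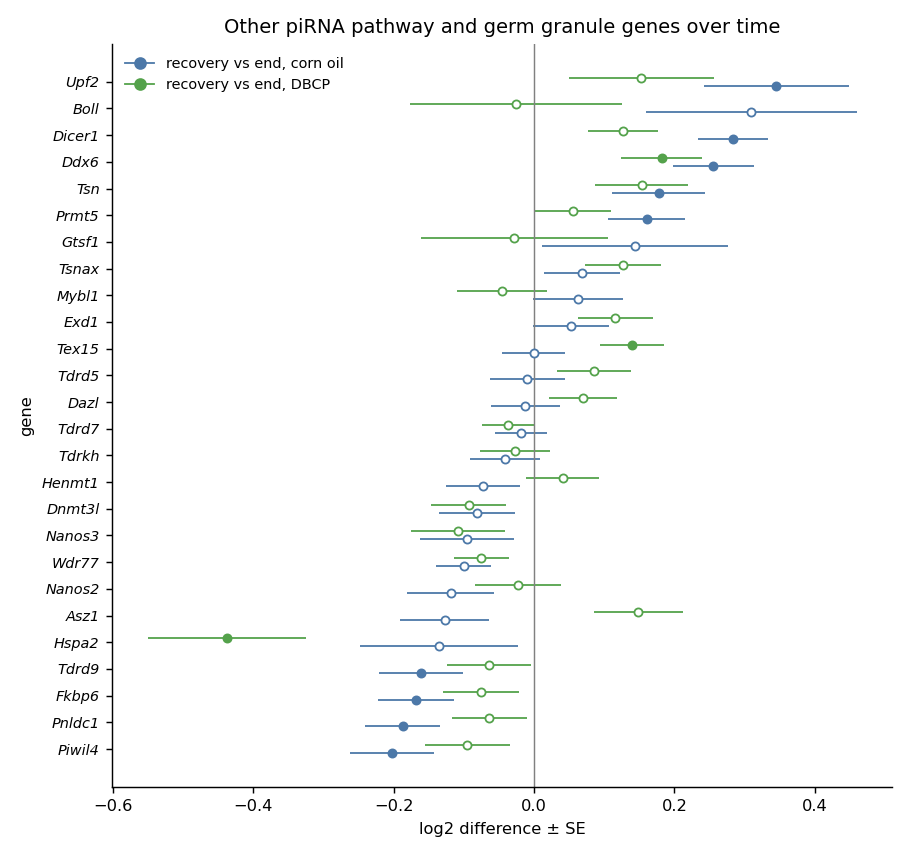
Log2 difference ± SE (horizontal axis) between recovery and the end of exposure for the 26 other pathway genes on the array (vertical axis, ordered by the corn oil value), in corn oil (blue) and DBCP rats (green); filled points passed an adjusted p of 0.05. The corn oil calls lie at both ends, from -0.20 for Piwil4 to 0.34 for Upf2, and Hspa2 at -0.44 is the lowest point in DBCP rats.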

How the data were processed

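RNA of 78 rat sperm samples was measured on 1 array each. The authors deposited log2 values, 1 per probe set and array; per the submitters' processing notes limma was used, and the sources used here do not give the background correction, normalization or summarisation. No batch or scan time was given. The platform annotation gave 1 symbol to 15310 probe sets, several to 323 and none to 13581; where a gene had several probe sets the one with the highest mean was used.

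A group means model with limma 3.58.1 (R 4.3.3; lmFit, eBayes) was fitted to all 78 arrays and 29214 probe sets without further scaling, with 5 contrasts and Benjamini-Hochberg adjustment across all of these and a threshold of 0.05; it was tested on simulated data. P-values measure the spread between these arrays, whose number limits the precision. Counts of arrays beside a difference are those beyond the other group's mean. List levels are means of log2 values over the genes of a list. Correlations used 100000 permutations (numpy 2.4.6, scipy 1.17.1).

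The 6 genes and all lists were chosen with earlier results of these data known. The rule for names took the 6 genes, every other pathway gene passing in any contrast, the 5 of highest mean among the others, the 3 genes most correlated with each of the 6, and up to 3 genes of a cell type list. Alternatives were quantile normalization, centring on array medians, a filter on dim probe sets, 1 probe set per gene, array weights, a trended robust prior, replicate numbers or their 2 sets (1 to 10, 11 to 20) as blocks, each set alone, only the groups of a contrast, list levels as covariates, and leaving out arrays. For the correlations, the sets and the arrays of low weight were added after seeing the data. Sequences are from RefSeq (GRCr8).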

Additional observations from a re-analysis of the deposited data

How the results depend on the processing

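Across 14 settings besides leaving out single arrays, no gene of the 6 passed in a DBCP comparison or the interaction. Over time in corn oil rats, 4 genes passed with array weights (28.9% of all probe sets) and 4 without the arrays of low weight (26.2%). With the late spermatid level as covariate 1 passed (48%), and with the leukocyte level 1 (1.7%). Among replicates 11 to 20, where 1.32% of probe sets passed, 0 did (Mael -0.41, adjusted p = 0.367). In DBCP rats 0 passed with the late spermatid level (26.9%), 1 among replicates 1 to 10 (10.4%) and 0 among 11 to 20 (1.73%, Mael -0.90, adjusted p = 0.0551). Of the 26 other genes, in corn oil rats 16 passed with the late spermatid level (48% of all probe sets), 1 with the leukocyte level (1.7%), 5 among replicates 1 to 10 (16.3%) and 0 among 11 to 20 (1.32%). With centring on array medians 7 passed in corn oil rats (20.8%), and Fkbp6 and Tdrd9 were not among them. In DBCP rats 9 passed with the late spermatid level (26.9%) and 0 among replicates 11 to 20 (1.73%). With the leukocyte level 2 passed between DBCP and corn oil at the end of exposure, Asz1 and Prmt5 (Asz1 is named after its value was seen), where 11.3% of probe sets passed. Each set alone holds fewer arrays; the cause of the other changes was not tested.

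Signs turned for differences near 0 and, with the late spermatid level, for some of the larger ones too. Among the larger ones are 4 falls over time in DBCP rats, which without a covariate were -0.83 (Mael), -0.39 (Ddx25), -0.16 (Tdrd1) and -0.44 (Hspa2). With the late spermatid level, values at the end of exposure were -0.14 (Mael), -0.046 (Piwil1), -0.045 (Ddx4), -0.059 (Ddx25) and -0.0097 (Tdrd1). The interaction was 0.22 (Mael), 0.054 (Ddx25) and 0.067 (Tdrd1). Over time Ddx25 was 0.041 in corn oil rats, and in DBCP rats Mael was 0.16, Ddx4 0.095, Ddx25 0.094, Tdrd1 0.054 and Hspa2 0.15. With the leukocyte level, Ddx4 was -0.00090 at the end of exposure and 0.010 over time in DBCP rats, and Piwil2 -0.0047 after recovery and 0.0015 over time in corn oil rats. With array weights, values were -0.0020 (Piwil1) and -0.0019 (Ddx4) at the end of exposure, and for Piwil2 -0.020 after recovery and -0.031 over time in DBCP rats. Without the arrays of low weight, values at the end of exposure were -0.012 (Piwil1), 0.0016 (Piwil2) and -0.026 (Ddx4), and for Piwil2 -0.015 after recovery, -0.017 in the interaction and -0.041 over time in DBCP rats. With centring Piwil2 was -0.00090 after recovery and Ddx4 -0.0029 in the interaction, and with quantile normalization -0.00074 and -0.031. Among replicates 1 to 10, Ddx4 was -0.058 and Ddx25 -0.063 at the end of exposure. After recovery they were -0.0098 and 0.0095, the interaction was 0.072 (Ddx25) and 0.017 (Tdrd1), and Ddx4 over time in DBCP rats was 0.00034. Among replicates 11 to 20, Piwil2 was -0.014 after recovery, -0.00040 in the interaction and -0.028 over time in DBCP rats, Piwil1 -0.0063 in the interaction, and r of Piwil1 with Tdrd1 -0.056. Within single groups 8 (DBCP, recovery), 10 (corn oil, end) and 4 (corn oil, recovery) correlations passed, fewer arrays each; r of the spermatocyte level was -0.090 with Piwil2 (DBCP, end) and -0.11 with Piwil1 (corn oil, recovery).

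Equal replicate numbers did not pair arrays (median r of deviations 0.0090 over 114 same-number pairs, -0.0018 over other pairs). With the replicate number as a block 2 and 4 of the 6 genes and 9 and 3 of the other genes passed over time, as without it. In this fit 21.3% and 13.3% of all probe sets passed, and Ddx25 after recovery was 0.0092. Leaving out each array in turn, members passing over time ranged from 2 to 3 in corn oil and from 3 to 4 in DBCP rats, and other genes from 7 to 10 and from 2 to 5. The value of 5 came without replicate 14 of the DBCP rats at the end of exposure. Tdrd1 in DBCP rats lost its call in 8 of the 78 fits (without replicates 2, 3, 11 or 13 at the end of exposure, or 9, 10, 11 or 19 in recovery; adjusted p up to 0.0753). In corn oil rats Tdrd9 lost its call in 19 fits (up to 0.0743), Tsn in 12 (up to 0.0751), and Prmt5 without recovered replicate 7 (0.0548); Tex15 lost its call without recovered DBCP replicate 14 (0.0566). Over all probe sets between 0 and 14 passed for DBCP at the end of exposure. Near-zero values ranged across 0: at the end of exposure Piwil1 from -0.0059 to 0.033 and Ddx4 from -0.014 to 0.038, after recovery Piwil2 from -0.0045 to 0.032 and Ddx25 from -0.023 to 0.0098, and Piwil2 over time in DBCP rats from -0.014 to 0.023. Each of the 6 genes has 1 probe set, so no other probe set could be tried for them. Dim probe sets limit Ddx4 and Tdrd1, which the filter on dim probe sets removed.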
